A study of Homo sapiens with 20 samples.

Results

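CTCF ChIP-seq of WT M14 cells was set against that of STAG2-KD M14 cells, using the 4 CTCF peak lists of a series of 20 samples, 16 of which had a list. M14 is an established human melanoma line, here carrying an shRNA against STAG2 that doxycycline switches on. STAG2-KD cells received doxycycline and WT cells did not, for 5 days per the labels of the first set, so WT differs from STAG2-KD in both the drug and the hairpin. The 4 lists formed 2 sets of 1 WT and 1 STAG2-KD library, with the same antibody lot: set 1 holds the titles without a number and set 2 the titles ending in 2. The labels of set 2 give the genotype but no treatment, and the sets differ in chromatin extraction, size selection and peak threshold, so WT and STAG2-KD were compared within a set. The lines rest on 1 hairpin construct, and nothing in the labels says whether the sets came from separate cultures, so p-values measure only the spread between these libraries.

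CTCF is a zinc finger protein that binds a defined DNA sequence and marks the borders of chromatin loops and topological domains. Cohesin, a ring built on SMC1A, extrudes DNA until it meets CTCF, and carries either STAG1 or STAG2 as an accessory subunit that can contact CTCF. CTCF binds DNA without cohesin, whereas the places where cohesin accumulates depend largely on CTCF. The question was therefore how far the CTCF sites themselves altered when STAG2 was depleted. As a check of the labels, the STAG2 antibody lists were shorter in STAG2-KD than in WT in both sets, with 58418 against 79048 peaks in set 1 and 106135 against 118984 in set 2. Peak lists carry no expression, so the melanoma identity of the cells could not be checked with marker genes.

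The number of CTCF sites hardly moved. Set 1 held 86248 CTCF peaks in WT and 88575 in STAG2-KD, and set 2 held 122299 and 115435. The log2 ratio of STAG2-KD to WT was 0.04 in set 1 and −0.08 in set 2, with a mean of −0.02 ± 0.09 (SD, n = 2). The direction thus differed between the sets, and p was 1 in an exact permutation test (two-sided) of the log2 number of peaks. With 2 lists against 2, the smallest p this test can give is 0.33. The expected background, which scales with depth, was 1.07 times higher in STAG2-KD than in WT in set 1 and 1.03 times higher in set 2. Under an assumed genome size of 2.7 Gb this corresponds to 20.2 M and 21.6 M reads in set 1 and 37.4 M and 38.5 M in set 2. Peak width was also alike between conditions, with medians of 390 bp in WT and 395 bp in STAG2-KD in set 1 and of 556 and 584 bp in set 2.

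The lists were checked against the sequence that CTCF recognises. The core searched was CCANNAGNNGGC, where N is any base, on either strand and within 100 bp of the summit, the position of highest pileup. This core was present at 16.8% of WT and 16.4% of STAG2-KD peaks in set 1 and at 12.6% and 13.1% in set 2, against 0.711% to 0.768% of windows of the same length 5 kb away. With 1 mismatch allowed, the shares were 60.5%, 60.1%, 51.4% and 52.4%, against 12.9% to 13.1% of the windows 5 kb away. STAG2-KD minus WT was −0.37 percentage points in set 1 and 0.45 in set 2, and the exact permutation test gave p = 1. The exact core rose steeply with peak strength, from 3.30% to 5.93% of the weakest 10% of each list to 37% to 39% of the strongest 10%.

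Sites that turn up again in the results are shown here with 61 bases of the hg19 reference on the plus strand, centred on the core or, where there is none, on the summit. Capitals mark an exact core match, and a sequence without capitals had none within 100 bp of its summit. The first pair was lost in both sets, the third was gained in both, the fourth fell and the fifth rose in rank in both, and the last is among the 5 strongest sites. All sites shown except the EDIL3 fall carry an intact core, but they do not represent their kinds. The core was present at 11.1% of all sites that fell and 10.3% of those that rose in both sets, by their set 1 peaks.
GRIK3 intron, lost, chr1:37448058-37448118: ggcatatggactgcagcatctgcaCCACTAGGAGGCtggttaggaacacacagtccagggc
176 kb from PMAIP1, lost, chr18:57742850-57742910: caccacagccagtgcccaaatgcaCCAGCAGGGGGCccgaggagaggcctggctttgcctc
Near PCED1B, gained, chr12:47428841-47428901: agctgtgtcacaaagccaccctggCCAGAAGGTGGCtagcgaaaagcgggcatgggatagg
EDIL3 intron, fell, chr5:83545855-83545915: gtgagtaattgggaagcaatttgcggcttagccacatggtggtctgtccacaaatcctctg
Near PLCG2, rose, chr16:81766427-81766487: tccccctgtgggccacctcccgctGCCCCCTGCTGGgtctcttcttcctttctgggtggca
Near OR2L8, strongest, chr1:248100310-248100370: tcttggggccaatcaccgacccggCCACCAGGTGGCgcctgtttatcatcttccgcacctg

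Most CTCF peaks were found in both conditions. WT peaks that no STAG2-KD peak overlapped by at least 1 bp are termed lost, and STAG2-KD peaks that no WT peak overlapped are termed gained. In set 1, 10643 WT peaks were lost, 12.3% of the list, and 13361 STAG2-KD peaks were gained, 15.1%. In set 2, 20685 were lost, 16.9%, and 14018 were gained, 12.1%. Losses exceeded gains in set 2 and gains exceeded losses in set 1, and the means over the sets were 14.6% ± 3.2 lost and 13.6% ± 2.1 gained (SD, n = 2). Each set has 1 list per condition, so a loss or gain within a set has no replicate check, and a site just under the threshold counts as absent.

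Loss and gain were matters of weak peaks. When each list was divided into 10 strength classes by −log10 q-value, 52.6% of WT peaks in the weakest class were lost in set 1 and 62.0% in set 2. In the fifth class the lost share was 1.09% and 3.96%. From the eighth class upward no peak of any of the 4 lists was lost or gained. Of WT peaks in the upper 50% of the list, 3 of 43067 were lost in set 1 and 29 of 61157 in set 2, and of STAG2-KD peaks 19 of 44203 and 25 of 57725 were gained. The lost peaks had a median of 9 reads at the summit in set 1 and 11 in set 2, and the shared peaks 39 and 37. Gained peaks had medians of 10 and 11 reads. The plot by strength class shows how both shares drop while the motif share climbs.

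**Figure D1:**
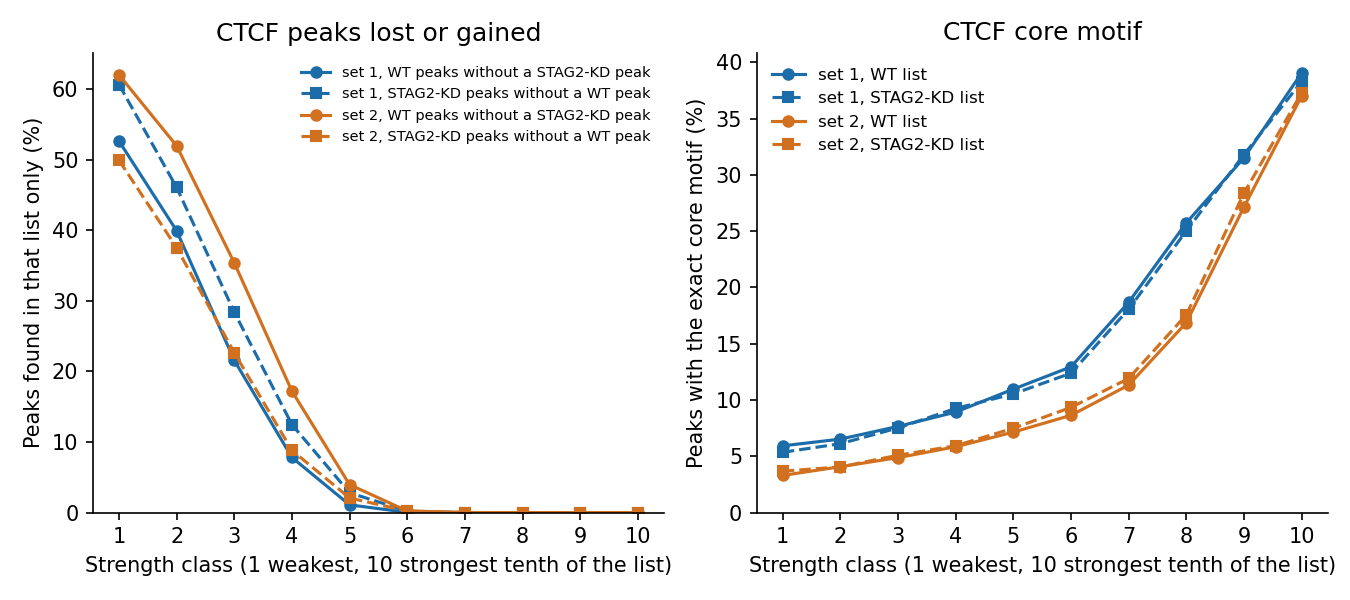
The x axes give the 10 strength classes of each CTCF list, from the weakest to the strongest 10% of peaks by −log10 q-value. The left panel gives the share of peaks (%) found in that list only, which is 49.9% to 62.0% in class 1 and 0 from class 8 upward, and the right panel gives the share (%) with the exact CTCF core within 100 bp of the summit, which reaches 37% to 39% in class 10. Blue is set 1, orange is set 2, and each point is 1 list without error bars.

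Lost and gained sites carried the exact core less often than shared sites. The exact core was present at 6.05% of lost and 5.56% of gained sites in set 1 and at 3.99% and 3.46% in set 2, against 18.3% and 14.4% of shared WT sites. Among the weakest 20% of WT peaks, where strength is closer, lost peaks carried it at 5.36% and shared peaks at 6.97% in set 1, and at 3.39% and 4.12% in set 2. Cohesin cover differed more in this weakest 20%, where STAG1 peaks of WT lay at 12.2% of lost and 23.3% of shared peaks in set 1 and at 17.4% and 33.1% in set 2. Promoters, the 1 kb around any annotated transcript start, held 27.9% of lost and 23.4% of shared sites in set 1. In set 2 they held 21.3% and 21.8%, so the promoter difference of set 1 did not recur. GC content around the summit averaged 53.6% at lost and 51.3% at shared sites in set 1, and 50.0% and 50.4% in set 2. These shares were not tested, since sites of 1 library are not replicates.

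Cohesin cover of the lost and gained sites differed by subunit. Gained CTCF sites of set 1 overlapped a STAG1 peak in 12.5% of cases in WT and in 35.4% in STAG2-KD, and those of set 2 in 20.5% and 25.4%. Over all STAG2-KD CTCF peaks the STAG1 shares were 59.8% and 71.2% in set 1 and 65.4% and 67.5% in set 2. SMC1A peaks covered 15.3% of gained sites in WT and 27.1% in STAG2-KD in set 1, and 24.7% and 36.6% in set 2. Over all STAG2-KD CTCF peaks they covered 59.7% and 65.4% in set 1 and 66.8% and 70.6% in set 2. At lost sites, STAG2 peaks went from 23.1% to 10.2% in set 1 and from 30.2% to 20.6% in set 2, and over all WT CTCF peaks of the same set from 66.6% to 55.4% and from 67.6% to 62.7%. SMC1A at lost sites went from 18.6% to 17.9% and from 28.5% to 25.1%. Over all WT CTCF peaks it went from 61.5% to 65.5% and from 65.2% to 66.9%. STAG2 at gained sites went down in set 1, from 17.0% to 11.8%, and up in set 2, from 21.3% to 25.7%. Over all STAG2-KD CTCF peaks it went down in both sets, from 64.4% to 54.3% and from 68.8% to 65.7%. STAG1 at lost sites did not fall, with 13.6% and 20.2% in set 1 and 18.4% and 18.7% in set 2. It also rose over all WT CTCF peaks, from 61.3% to 70.5% and from 62.6% to 64.1%. All libraries of a set and condition share the same cells and input by design, so the lists of the other set were used as well. Of gained sites of set 1, 46.0% had an SMC1A peak in WT and 58.8% in STAG2-KD of set 2. For gained sites of set 2, the corresponding values in set 1 were 10.3% and 14.9%. Over all STAG2-KD CTCF peaks this SMC1A share was 77.7% and 80.6% for set 1 and 47.1% and 51.8% for set 2. At lost sites the STAG2 share taken from the other set went from 45.9% to 35.9% and from 10.9% to 4.6%, although over all WT CTCF peaks it also went from 79.4% to 74.7% and from 49.6% to 40.1%.

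A minority of the losses and gains recurred in the other set. Sites lost in both sets numbered 2454, which is 2.93% of the set 1 WT peaks that also had a set 2 WT peak. Sites gained in both numbered 1550, or 1.80% of the corresponding STAG2-KD peaks. Of 9998 set 1 losses with a WT peak in set 2, 24.4% were lost there too, compared with 0.195% of the 73771 set 1 peaks that were kept. Of 12594 set 1 gains with a STAG2-KD peak in set 2, 12.3% were gained there, compared with 0.134% of 73322. The contrast was present within classes of WT strength in set 1. Kept peaks, however, are by definition also in the STAG2-KD list of set 1, and 97.0% of that list overlapped the STAG2-KD list of set 2. The low shares of kept peaks follow in part from this choice, so the classes cannot separate recurrence from strength. In the weakest 10% of the set 1 WT list, 26.0% of lost and 0.757% of kept peaks were lost in set 2, and in the fourth 10% the shares were 11.9% and 0.327%. The set 2 lists reach further down, with 6.91% of WT and 6.61% of STAG2-KD peaks at a −log10 q-value below 2, the lowest value in set 1.

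The 5 strongest sites lost in both sets had moderate pileups. The first, 34.0 kb from the nearest protein-coding start, that of TSC22D2, lay at chr3:150091880-150092257 and held 19 reads in WT set 1 and 67 in WT set 2. All STAG2 and SMC1A lists of WT had a peak there, and no STAG2 or SMC1A list of STAG2-KD did. The second lay 16.2 kb from CCDC190, at chr1:162854654-162854828, with 18 and 29 reads. The third lay in an intron of an annotated transcript on chromosome 5, 372 kb from GRAMD2B, with 16 and 31 reads. STAG1 lists covered this site in both conditions. The fourth lay in an intron of GRIK3, which encodes a kainate glutamate receptor subunit, with 15 and 27 reads. The fifth lay 176 kb from PMAIP1, which encodes the BH3-only protein NOXA, with 18 and 23 reads. Both of the latter carry the exact core shown above, and at the PMAIP1 site no cohesin list had a peak.

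The 5 strongest sites gained in both sets were of similar size. The site 245 kb from AKR1E2 held 18 reads in STAG2-KD set 1 and 34 in set 2. The site in KCNMB2, which encodes a beta subunit of calcium-activated potassium channels, held 22 and 39 reads and lay within 1 kb of an annotated transcript start. An intron of IP6K3, an inositol hexakisphosphate kinase gene, held 21 and 26. At this site SMC1A peaks were in neither WT list and in both STAG2-KD lists. The site 44.5 kb from PCED1B held 21 and 29 reads, and STAG1 peaks there were likewise in neither WT list and in both STAG2-KD lists. The fifth, 404 kb from DMRT2, held 17 and 25 reads. The percentile of these sites did not exceed 55.5 in either STAG2-KD list, where 100 is the strongest peak of a list.

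**Figure D2:**
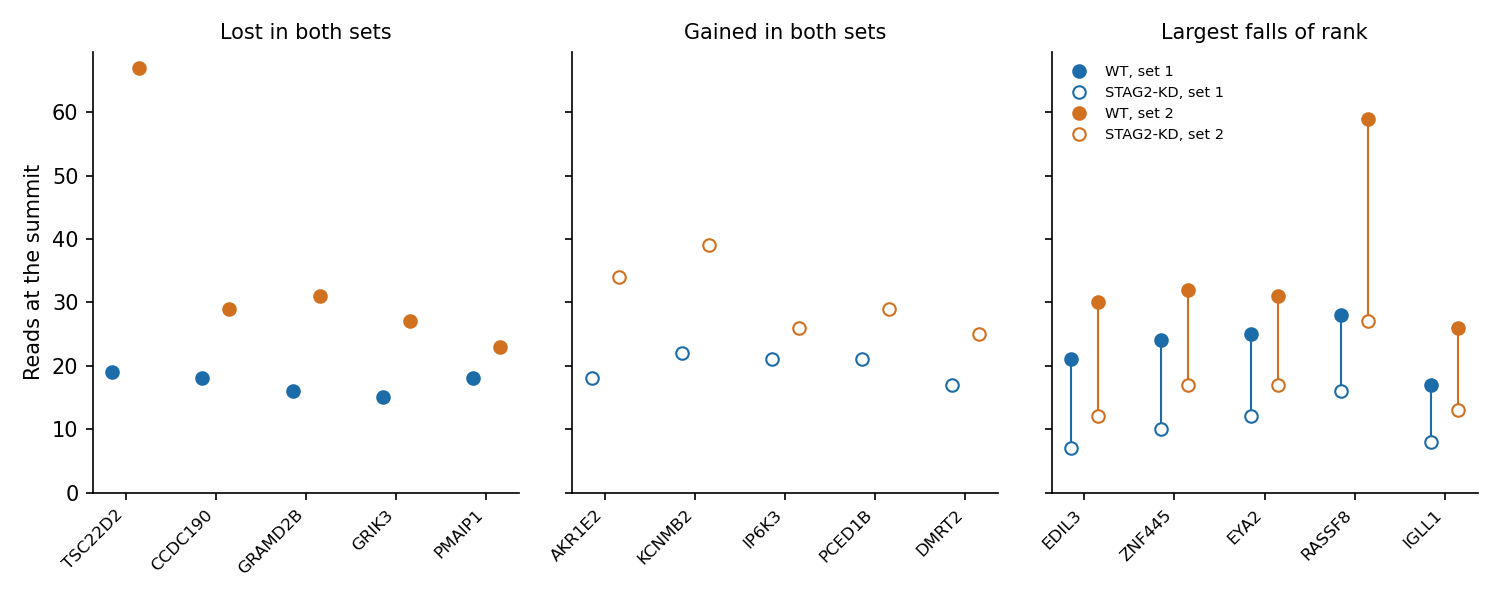
Whole reads at the summit (y axis, linear from 0) are plotted for the 5 strongest sites lost in both sets, the 5 strongest gained in both and the 5 with the largest falls of rank, each labelled by the gene it lies in or the nearest protein-coding start. Filled points are WT and open points STAG2-KD, blue is set 1 and orange set 2, each point is 1 library, and a missing point means that the list has no peak; all values lie between 7 and 67 reads.

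At shared sites the order of strength was largely kept. The change was measured as STAG2-KD minus WT in within-list percentile of −log10 q-value, since that value depends on depth and background. It was within 10 points at 76.9% of 75605 shared peaks in set 1 and at 74.5% of 101614 in set 2. The SD of the change was 11.7 points in set 1 and 13.6 in set 2, and the median was 0.82 and −1.39. A rise of at least 20 points was seen at 3780 peaks in set 1, 5.00%, and at 4603 in set 2, 4.53%. A fall of at least 20 points was seen at 1739 peaks, 2.30%, and at 4973, 4.89%. As with losses, large changes belonged to weak peaks: the SD was 20.5 and 24.6 points in the weakest 10% of the WT lists and 3.36 and 3.87 in the strongest 10%. The weakest class also had a median change of 16 and 16.9 points, since a peak near the bottom of a list can only stay, rise or drop out.

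Changes of rank were also compared between the sets. At 73627 WT peaks of set 1 whose site was in all 4 lists, the changes in the sets had a Pearson correlation of 0.41 and a Spearman correlation of 0.51 across sites. This is a description of sites, which are not independent replicates. Of the 1678 that fell by at least 20 points in set 1, 93.6% also fell in set 2, compared with 62.0% of all, and their median change in set 2 was −12.8 points. Of the 3677 that rose by at least 20 points in set 1, 67.1% rose in set 2, compared with 38.0% of all, with a median of 2.66 points. The sign of a fall carried over more often than that of a rise, but falls were also the commoner change in set 2 over all sites. In the second 25% of the set 1 WT list, counted from the weakest, 93.2% of falls and 73.1% of rises kept their sign. Over all sites of that class 66.8% fell and 33.2% rose in set 2. The weakest 25% held 2979 of the rises, and 66.0% of these rose in set 2, against 46.2% of all sites of that class. A fall of at least 20 points in both sets was found at 352 sites, 0.478%, a rise in both at 117, 0.159%, and opposite changes of that size at 12.

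Part of the rises came with a change in how peaks were divided. A WT peak was compared with the strongest STAG2-KD peak over it, so a STAG2-KD interval that spans a strong and a weak WT peak gives the weak one a large rise. Among the 65022 sites whose peaks overlapped 1 to 1 in both sets, 341 fell and 77 rose by 20 points in both. The fall count was thus close to that over all sites, and the rise count was lower. In these 1 to 1 sites the correlation of rank change between the sets was 0.53.

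The change was also measured in reads. The summit pileup was recovered as a whole number of reads for over 99.9% of peaks and divided by the genome background of its list. The log2 ratio of STAG2-KD to WT had a median of 0.02 in set 1 and −0.02 in set 2 and an SD of 0.55 and 0.59, while the median counting error of a single site was 0.32 and 0.34. A change beyond the 95% counting interval was seen upward at 7.12% and downward at 2.72% of shared peaks in set 1, and at 4.70% and 2.99% in set 2. In 1 to 1 pairs these shares were 5.91% and 2.8%, and 2.79% and 3.15%. Counting error covers neither culture nor library preparation. By this measure, of 73627 sites in all 4 lists, 1234 went up and 813 went down in both sets and 20 went opposite ways. Increases thus outnumbered decreases past the counting interval, where falls of 20 points in rank outnumbered rises. When sites were ranked by summit reads instead of −log10 q-value, 111 rose and 375 fell by 20 points in both sets. The reversed order thus went with the counting interval and not with the use of reads as such. The set 1 pileups have a ceiling, in that no peak exceeded 240 reads in either list, and 2.62% of WT and 2.93% of STAG2-KD peaks lay within 10% of it.

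**Figure D3:**
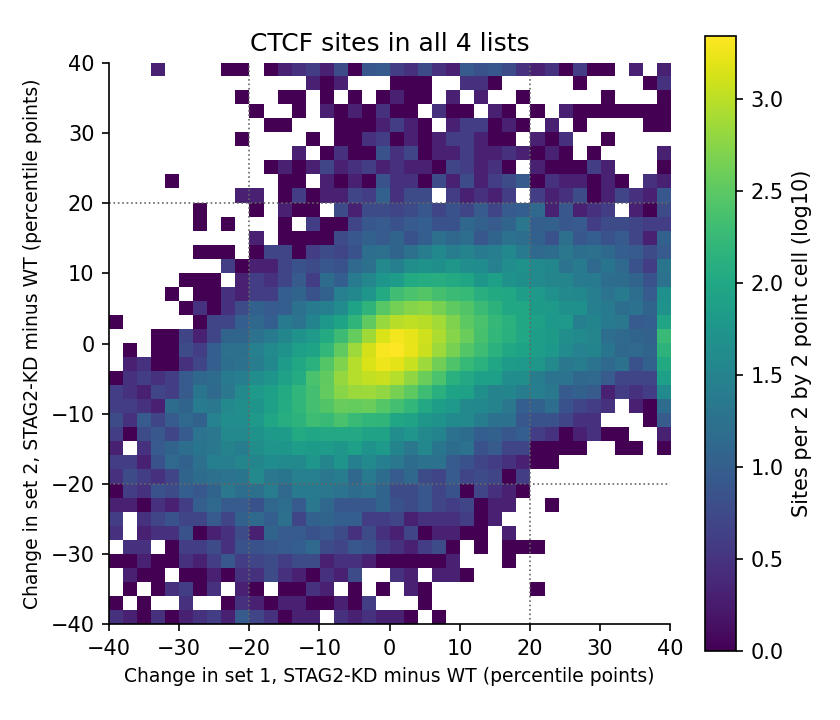
Each cell counts CTCF sites present in all 4 lists by their change in within-list percentile, STAG2-KD minus WT, in set 1 (x axis) and set 2 (y axis), in percentile points, with colour giving the log10 number of sites and changes beyond 40 points drawn at the edge. The cloud of 73627 sites tilts upward with a Pearson correlation of 0.41, and the dotted lines at 20 points set off 352 sites at the lower left and 117 at the upper right.

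The 5 largest falls were all in 1 to 1 pairs, and each was also a fall in reads. An intron of EDIL3, which encodes an integrin-binding matrix protein, went from 21 reads in WT to 7 in STAG2-KD in set 1 and from 30 to 12 in set 2. Its fold enrichment over background went from 10.0 to 3.62 and from 8.87 to 2.07. An intron of the zinc finger gene ZNF445, 1.39 kb from its start, went from 24 to 10 reads and from 32 to 17. The STAG2 and SMC1A peaks that 1 WT list each had at this site were absent from both STAG2-KD lists. An intron of EYA2, a phosphatase and transcriptional coactivator gene, went from 25 to 12 and from 31 to 17 reads, and no cohesin list had a peak there. An intron of RASSF8 went from 28 to 16 and from 59 to 27 reads. A site 46.7 kb from IGLL1 went from 17 to 8 and from 26 to 13 reads. At every one of these sites, which were chosen for their fall, both STAG2-KD libraries lay below both WT libraries in reads, and none had the exact core within 100 bp. The expected background at each was also higher in STAG2-KD than in WT of the same set. At EDIL3 it went from 1.19 to 1.21 reads in set 1 and from 2.49 to 5.28 in set 2. At EYA2 it went from 0.896 to 2.12 and from 2.41 to 7.05. The falls in fold and rank thus combine fewer reads with a higher background, and their parts were not separated.

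Of the 5 largest rises, 1 was a 1 to 1 pair in both sets. At chr20:6154163-6154327, 50.4 kb from FERMT1, reads went from 8 to 26 in set 1 and from 17 to 47 in set 2. Near PLCG2, which encodes a phospholipase C of immune signalling, they went from 7 to 22 and from 11 to 37, with a second WT peak, not a stronger one, under the STAG2-KD interval of set 2. SMC1A and STAG1 peaks at the PLCG2 site were in neither WT list and in both STAG2-KD lists. The first in order, at the promoter of INTS15, an Integrator subunit gene, went from the percentile 11.2 to 97.8 in set 1, but its STAG2-KD peak also spanned a WT peak at 97.6. The second, 30.9 kb from TMEM63B, went from 5.77 to 85.6 beside a WT peak at 91.9 under the same STAG2-KD interval. The fourth, 34.1 kb from HNRNPA1L2, had such a neighbour at 89.2 in set 2. In these 3 the STAG2-KD percentile lay close to that of the stronger WT peak beside them, and only set 1 of the last was a 1 to 1 pair.

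The sites that fell or rose in both sets had fewer cohesin peaks in WT than all sites in the 4 lists, which were stronger. Of the 352 that fell, SMC1A peaks of the same set covered 23.6% in WT and 14.8% in STAG2-KD in set 1, and 50.9% and 39.2% in set 2. Over all sites in the 4 lists the shares were 68.1% and 72.6%, and 85.9% and 87.0%. Of the sites that rose, SMC1A covered 28.2% and 52.1% in set 1, and 62.6% and 86.1% in set 2. STAG2 at the sites that fell went from 36.6% to 13.1% and from 56.0% to 35.5%, and over all sites in the 4 lists from 73.3% to 62.4% and from 86.9% to 82.8%. The exact core was present at 11.1% of sites that fell and 10.3% of those that rose in set 1, against 18.4% of all sites in the 4 lists. The WT peaks that fell had a median percentile of 37.6 in set 1 and 53.1 in set 2, so they lay in the middle of the lists.

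The relation to STAG2 was followed across the whole WT list within classes of CTCF strength. In the third 25% of the set 1 WT list, counted from the weakest, CTCF sites that kept a STAG2 peak had a median change of 1.39 points, those that had a STAG2 peak in WT only −2.42, and those without STAG2 −2.09. The corresponding values in set 2 were −2.07, −6.15 and −5.36. In the strongest 25% they were 0.07, −4.01 and −1.86 in set 1 and −0.79, −4.94 and −3.62 in set 2. CTCF sites with a STAG2 peak in WT only were thus lower than those that kept it in all 4 of these cases, and so were sites without STAG2 in either condition. The strongest 25% held 322 sites with STAG2 in WT only in set 1 and 156 in set 2. When STAG2 was taken from the lists of the other set, which have separate libraries and input, the third 25% gave 1.03, −4.37 and −2.23 for CTCF of set 1 and −1.55, −4.31 and −3.85 for CTCF of set 2. In log2 reads the third 25% gave 0.11, −0.25 and −0.13 for set 1 and 0.02, −0.15 and −0.13 for set 2, again with STAG2 from the other set. STAG1, which the hairpin does not target, also gave lower values where its peak was not kept. In the third 25%, sites that kept, lost or lacked a STAG1 peak of the same set changed by 1.15, −6.70 and −3.74 points in set 1. In set 2 they changed by −1.97, −5.64 and −6.35 points. The lower values at sites that did not keep a STAG2 peak were thus not particular to STAG2. All these shifts are small beside the SD of single sites, and the part of CTCF strength within a class in them was not tested.

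**Figure D4:**
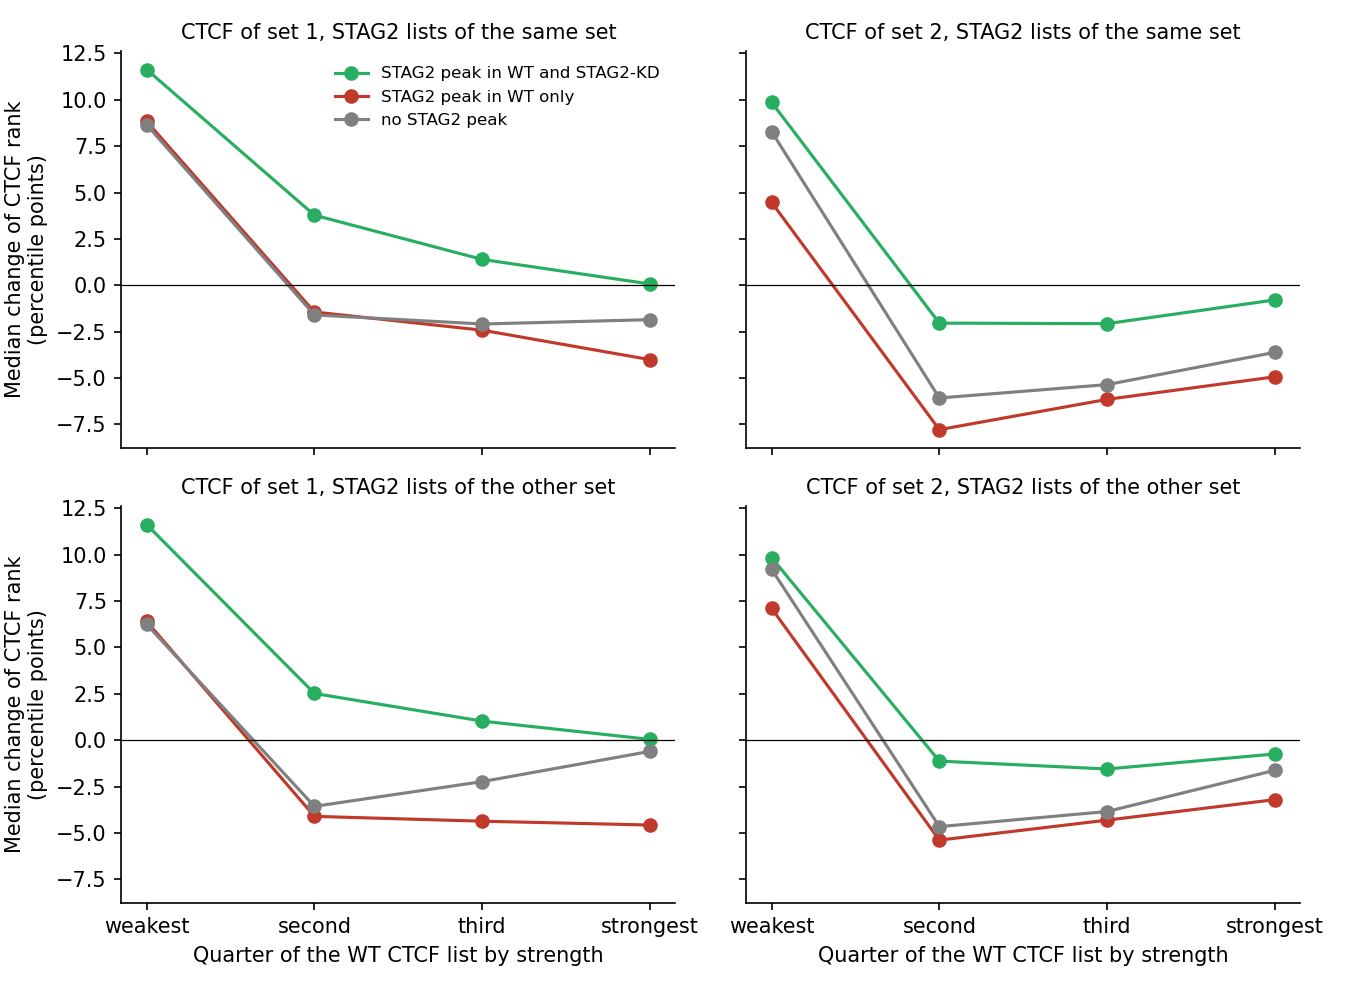
The median change of CTCF rank (y axis, percentile points, STAG2-KD minus WT) is plotted against the 4 strength classes of the WT CTCF list, weakest to strongest (x axis), for sites that kept a STAG2 peak (green), had one in WT only (red) or had none (grey). The upper panels take STAG2 from the same set and the lower from the other set; the points are medians over sites without error bars, and red lies below green in every class of every panel.

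SMC1A gave the same order as STAG2, with the lowest values where its peak was in WT only. In the third 25% of the lists, sites that kept SMC1A, lost it or lacked it had median CTCF changes of 1.33, −5.40 and −4.00 points in set 1 and of −1.97, −8.93 and −7.16 in set 2. With SMC1A from the other set the values were 0.98, −6.90 and −2.74, and −1.54, −6.14 and −5.45. Loss of CTCF calls in the second 25% was 2.1%, 7.64% and 12.5% for sites that kept, lost or lacked SMC1A in set 1 and 6.68%, 19.9% and 22.1% in set 2. Sites with an SMC1A peak in STAG2-KD only lost 2.03% and 4.74% of their CTCF peaks, the lowest share of the 4 classes in both sets. The share of CTCF peaks with an SMC1A peak of their own condition was 61.5% in WT and 65.4% in STAG2-KD in set 1, and 65.2% and 70.6% in set 2. The difference was 4.6 points on average and upward in both sets, and the exact permutation test gave p = 0.33, the smallest it can give. The SMC1A lists were also longer in STAG2-KD, with 91489 against 82239 peaks in set 1 and 150282 against 148383 in set 2.

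CTCF was the antibody whose WT and STAG2-KD lists overlapped most. The Jaccard index, shared bases over all covered bases, was 0.724 in set 1 and 0.735 in set 2, and the 6 pairs of STAG1, STAG2 and SMC1A lists ranged from 0.578 to 0.702. A two-sided exact permutation test over the 8 pairs gave p = 0.036, the smallest it can give, and 0.14 after Benjamini-Hochberg adjustment over the 4 measures compared. The mean lost share was 14.6% for CTCF and 19.9% ± 9.1 for the 6 cohesin pairs (SD), with an adjusted p of 0.46 in the exact test. The gained share was 13.6% against 21.2% ± 10.4, also with an adjusted p of 0.46 in the exact test. The SD of rank change was 12.6 points against 16 ± 3.1, with an adjusted p of 0.43 in the exact test. STAG2 had a lower share of lost and gained sites than CTCF only for gains (9.26% ± 3.9, n = 2), and STAG1 only for losses (10.0% ± 5.1, n = 2), so at full list length the shares did not set CTCF apart. With every list cut to its strongest 50000 peaks, CTCF lost 7.28% and 6.06% and gained 7.51% and 6.16%, below each of the 6 cohesin pairs in both shares, with an adjusted p of 0.095 in the exact test for either share. At this length the Jaccard index was 0.770 and 0.796 for CTCF, still the highest, but 0.768 for STAG1 of set 2 (adjusted p of 0.095 in the exact test). The SD of rank change was 9.13 and 9.94 points for CTCF and 9.27 for STAG1 of set 2 (adjusted p of 0.14 in the exact test). This SD did not set CTCF apart. The pairs of a set share cells and input, and the antibodies differ in the depth of their lists.

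**Figure D5:**
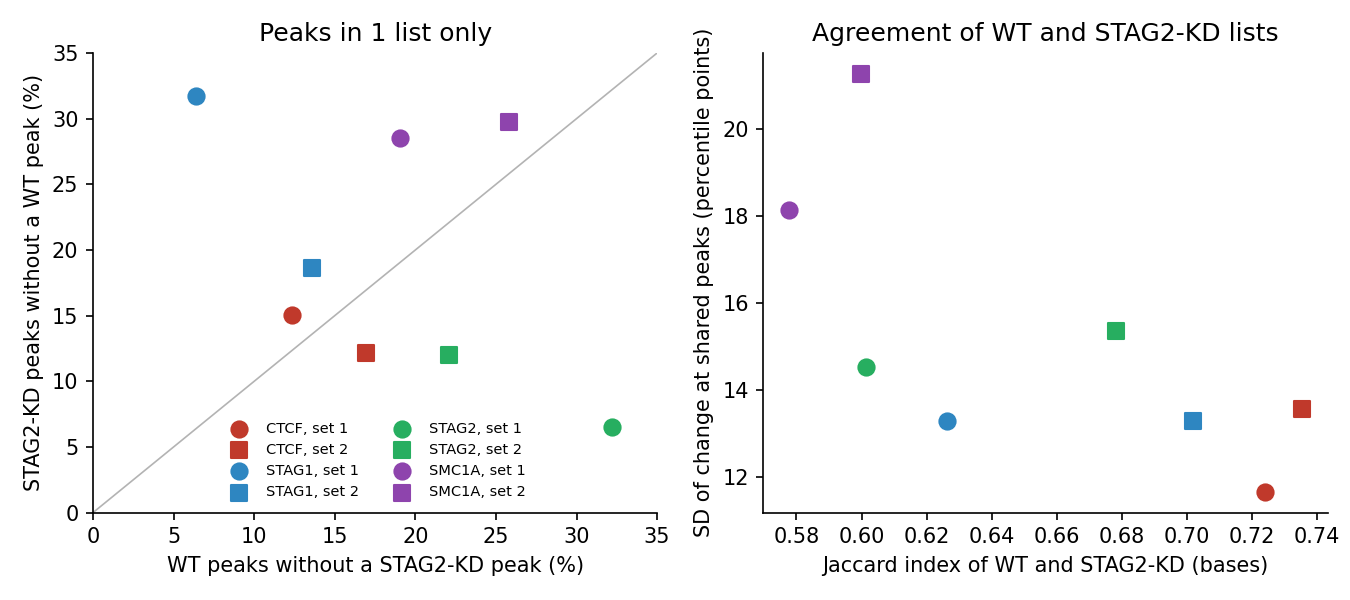
The left panel plots the share of WT peaks without a STAG2-KD peak (x axis, %) against the share of STAG2-KD peaks without a WT peak (y axis, %), with the line of equal shares, and the right panel plots the Jaccard index (x axis) against the SD of rank change at shared peaks (y axis, percentile points). Colours give the antibody, circles set 1 and squares set 2, and each point is 1 pair of lists; CTCF (red) lies near the line and furthest right, at 0.724 and 0.735.

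The changes were found on every chromosome compared, and clustering within chromosomes was not tested. The lost share by chromosome ranged from 8.77% on X to 15% on 22 in set 1 and from 15.9% on 9 to 18.3% on 13 in set 2, and the gained share from 13.3% to 16.9% and from 10.9% to 13.6%. X, which carries STAG2 and SMC1A, had the lowest lost share in set 1 and 16.5% in set 2. By annotation, the lost share was 14.4%, 12.7%, 12.3% and 10.7% at promoters, exons, introns and intergenic sites in set 1, and 16.6%, 16.6%, 17.7% and 16% in set 2. Promoters thus stood highest in set 1 and not in set 2.

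At loci chosen for the study's pathways, for cohesin, for the melanocyte lineage and for imprinting, CTCF sites were in all 4 lists about as often as elsewhere. Around 22 genes, each with 10 kb on either side, the 4 lists together had 157 sites, of which 76 were in all 4, 5 were lost in both sets and none was gained in both. Of all 135421 merged sites, 51.3% were in all 4 lists, and at these genes 48.4% were. Of the same 135421 sites, 2418 were in both WT lists only and 1530 in both STAG2-KD lists only. No site of these genes changed rank by 20 points in both sets. At IRF9, which encodes the DNA-binding subunit of the interferon-activated factor ISGF3, the site over the gene start went from the percentile 93.9 to 89.5 in set 1 and from 94.2 to 88.0 in set 2, with 179 reads in both conditions of set 1 and 172 and 162 in set 2. A weak peak 6.7 kb upstream, with 7 and 9 reads in WT, was lost in both sets.

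At other interferon genes the strong sites were likewise in all 4 lists. STAT2, a signal transducer of the type I interferon receptor, lost a peak of 7 and 10 reads at its start in both sets, while its exonic site went from 43 to 32 and from 57 to 48 reads. The strongest site of the STAT2 locus, 25.9 kb from the start, went the other way, from 78 to 114 and from 104 to 131 reads. USP18, a deubiquitinase-like enzyme that removes ISG15, had an intronic site that went from 123 to 90 and from 143 to 114 reads, and a peak of 9 and 11 reads that was lost in both. At ISG15, the ubiquitin-like modifier, the site beside the start held 235 and 234 reads in set 1 and 230 and 238 in set 2. The set 1 values lie just under the ceiling of 240 reads. At the start of CD274, which encodes PD-L1, the values were 93 and 116 reads in set 1 and 141 and 148 in set 2. DUSP6, an ERK phosphatase, had 1 site in all 4 lists, 2.9 kb upstream, with 43 and 37 reads in set 1 and 59 and 56 in set 2.

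Imprinted and lineage loci gave reference points. The peak at H19, whose imprinting control region is a classical CTCF-dependent insulator, held 199 and 203 reads in set 1 and 193 and 206 in set 2. At CTCF itself the site at the start held 192 and 212 reads, and 250 and 265. The site at the start of STAG2 was at the percentile 99.1 in WT and 98.3 in STAG2-KD in set 1 and at 99.6 in both conditions of set 2. MITF, the melanocyte master regulator, had 10 sites in all 4 lists, and 1 site was lost in both sets, with 10 and 33 reads in WT. At MEG3, an imprinted non-coding RNA gene, 1 weak peak with 7 and 9 reads was lost in both sets, and an exonic site held 145 and 142 reads in set 1 and 153 and 157 in set 2. Near SOX10, another regulator of this lineage, the site 22.1 kb from the start went up, from 157 to 172 and from 177 to 194 reads.

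Gene lists were described by counts beside all protein-coding genes, around which 12.9% of WT peaks were lost in set 1 and 17.1% in set 2, and 14.7% and 11.8% of STAG2-KD peaks were gained. Around 38 interferon-stimulated genes, 18 of 111 WT peaks were lost in set 1 (16.2%) and 24 of 137 in set 2 (17.5%), with gains of 9.71% and 9.52%. Around 21 genes of interferon receptors and transducers, 27 of 103 were lost in set 1 (26.2%) and 22 of 128 in set 2 (17.2%), and 7 sites were lost and 2 gained in both sets. Around all protein-coding genes 1681 sites were lost and 1011 gained in both sets, with 58104 WT and 58994 STAG2-KD peaks in set 1. The higher lost share of set 1 did not recur in set 2, although 7 of the sites were lost in both. WT peaks of this list were weaker, with median percentiles of 30.6 and 44.4 against 49.4 and 49.7 around all protein-coding genes. The part of strength in these counts was not tested. Around 20 antigen presentation genes 3 of 42 and 7 of 51 WT peaks were lost. Around 16 genes of cohesin and its regulators 8 of 72 and 24 of 110 were lost, with gains of 4.35% and 9.57%.

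Of the remaining lists, the protocadherins lay furthest below the share lost around all protein-coding genes. The 51 clustered protocadherin genes, whose promoters are known CTCF targets, lost 4.62% of 65 WT peaks in set 1 and 4.84% of 62 in set 2 and had 62 WT peaks in all 4 lists. Their peaks were also stronger, with a median percentile of 55.7 in WT set 1 and 73.7 in WT set 2, against 49.4 and 49.7 around all protein-coding genes. Around 14 imprinted genes with CTCF control, 21.0% of 81 and 13.3% of 90 were lost, and gains were 12.3% and 2.60%. The 10 melanocyte genes lost 4 of 44 and 15 of 74, and gained 24.5% and 14.7%. The 19 MAPK feedback genes lost 7.14% and 18.4%, the 39 HOX genes 9.38% and 16.9%, the 177 olfactory receptor genes of chromosome 11 lost 11.3% and 17.6%, and the 85 ribosomal protein genes 13.1% and 19.9%. The largest number of rank changes past 20 points in both sets in any of the 11 lists was 2, at the ribosomal protein genes and at the interferon-stimulated genes. These had 204 and 90 WT peaks in all 4 lists. Around all protein-coding genes 254 fell and 79 rose, with 49726 in all 4 lists.

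The 5 strongest CTCF sites were among the top 0.1% of every list in both conditions. At chr19:34268615-34269551, 17.7 kb from KCTD15, the summit held 282 reads in both conditions of set 2. In set 1 it held 240 in both, which is the ceiling of these lists and so cannot show a difference. At the promoter of RBM17, a splicing factor gene, it held 237 and 236 reads in set 1 and 285 and 291 in set 2. The sites near GPR132, OR2L8 and NOTUM ranged from 234 to 239 reads in set 1 and from 257 to 284 in set 2. The set 1 values of these sites and of RBM17 lie just under the ceiling and leave little room for a rise. In set 2 only 1 WT peak and no STAG2-KD peak exceeded 300 reads, so values there may be limited as well. Every cohesin list had a peak at each of these sites. The widest gap between conditions was at OR2L8 in set 2, with 284 and 272 reads.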

How the data were processed

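Peak lists of 16 libraries were used, 1 list per library; the 4 input libraries had none. The methods state alignment to hg19, removal of low-quality and duplicate reads, and peak calling with MACS2 against input. The labels name Bowtie2 for set 1 and BWA for set 2, where the methods name bowtie2 for all. For each peak the authors deposited a whole-number score, the fold enrichment at the summit (a ratio of pileup to expected background), −log10 p-value and −log10 q-value. Set 1 lists stop at a −log10 q-value of 2, and set 2 lists at a −log10 p-value of 2, so lists were compared within a set.

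Peaks on chromosomes 1 to 22 and X were kept. Overlap was at least 1 bp, and rank was the within-list percentile of −log10 q-value, ties sharing their mean. Summit reads were solved from the deposited fold and p-value under the Poisson model of MACS2. A read number counted as recovered when its −log10 p-value lay within 10 times what rounding of the columns allows. For depth, 2.7 Gb of genome and reads extended to the width of the narrowest peak (120 and 150 bp) were assumed. Intervals and counting errors cover counting only. Transcripts were those of GENCODE 44 mapped to GRCh37, the build of the lists, and the reference sequence was of the same build. Windows for the motif were 201 bp. Functions were tested on simulated lists. Python 3.11.15, numpy 2.4.6, pandas 2.3.3 and scipy 1.17.1 were used.

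Sets were paired because the labels give each its own extraction and size selection. The named sites were the 5 lost and 5 gained in both sets with the lowest sum of ranks, the 5 largest falls and rises by the smaller change of the sets, and the 5 with the lowest sum of ranks in all 4 lists, leaving out chromosome 8, plus 22 loci and 11 gene lists. RAD21 lies on chromosome 8 and entered the counts only. The sites of 1 further locus entered the counts and are not reported here. Members and lists were chosen with earlier results of these data known. Alternatives were stricter and common thresholds, other overlaps, equal list lengths, other ranking columns and leaving out a set.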

Additional observations from a re-analysis of the deposited data

Results flagged for a closer look

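Some rows of the deposited CTCF lists lay outside the chromosomes compared here, on patches, alternate loci, unplaced contigs and the remaining chromosomes. They made up 4.67% of the WT rows and 4.76% of the STAG2-KD rows in set 1, and 0.271% and 0.298% in set 2. The share was alike in WT and STAG2-KD of a set, and these peaks entered no comparison except the count of all deposited rows.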

How the results depend on the processing

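The log2 ratio of CTCF peak number was −0.022 and kept its sign at stricter and common thresholds and with all rows, and ranged from −0.083 to 0.038 when a set was left out; the motif difference ranged from −0.37 to 0.45. With the replicate block (paired, exact sign flips) the differences were −0.022 and 0.041, both with p = 1, and for CTCF against cohesin the adjusted p from exact permutation within a set was 0.25 to 0.56. Leaving out a set gave a lost share of 12.3% to 16.9%, a gained share of 12.1% to 15.1%, an SD of 11.7 to 13.6 points, rises of 4.53% to 5.00% and falls of 2.30% to 4.89%. It gave differences of CTCF from cohesin of −6.88 to −3.58 points lost, −7.97 to −7.16 gained, 0.075 to 0.12 in Jaccard index and −3.66 to −3.07 in SD. Mean lost and gained shares were 22.2% and 21.2% by summits within 100 bp, 11% and 10.8% at a −log10 q-value of at least 5, 0.027% and 0.043% for the strongest 50% of a list, and 10.7% and 10.9% for the strongest 80000 peaks, where 2823 sites were gained in both. In 1 to 1 pairs the SD was 9.91 points and rises 3.11%. Rises were 5.62% by fold, 3.74% among shared peaks only, 4.41% at the common threshold and 4.16% by summit reads. Sites that rose and fell in both sets numbered 1291 and 3101 at 10 points, 18 and 27 at 30 points, and 251 and 575 by fold; 77 rose in 1 to 1 pairs. Motif shares at shared, lost and gained sites were 59.3%, 36.6% and 36.5% with 1 mismatch, and 3.55% at lost sites within 50 bp. The cause of these shifts was not tested. The 1 to 1, summit-read and shared-rank alternatives for changes in both sets were chosen after seeing the data. Depth limits weak sites: the median lost peak rests on 9 or 11 reads.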
